A study of Drosophila melanogaster with 2 samples.

Results

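kay, the Fos protein of the fly, was mapped on chromatin, and its peaks are described here at 9 genes of the actin and myosin cytoskeleton in whole adult male Drosophila melanogaster. The genes were chic, sqh, zip, Act5C, Act42A, tsr, ena, cpb and jar, taken from a list that was drawn up with peaks of these data known, out of 13945 protein-coding genes on the 6 nuclear arms (2L, 2R, 3L, 3R, 4 and X). A peak was assigned to a gene when its summit lay inside the gene or within 1 kb of an annotated transcription start. Chromatin immunoprecipitation with sequencing (ChIP-seq) used an anti-GFP antibody on flies of a kay-GFP strain, a transgenic line that stably expresses kay with GFP at its C-terminal end. Both libraries, biological replicates 1 and 3 per the labels, carry this transgene and come from the same strain, age unknown. There was no untagged or untreated group in the data used here, so no contrast between conditions exists and every value below is a description without a test. Whole animals were used, so the tissue in which a site was bound cannot be told apart, nor can weak binding in many cells from strong binding in few.

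AP-1 is a pair of leucine zipper proteins, in the fly kay with its Jun partner Jra, that binds the sequence TGACTCA or, read on the other strand, TGAGTCA. It acts downstream of the JNK kinase cascade and is known in the fly for epithelial closure and wound repair, processes in which cells reshape their actin. Actin filaments grow from monomers that profilin (chic) delivers to filament ends. Cofilin (tsr) severs filaments, capping protein (cpb is its beta subunit) blocks their ends, and Ena (ena) keeps ends growing. Nonmuscle myosin II, made of the heavy chain zip and light chains such as sqh, pulls filaments together, and jar is myosin VI, which walks towards the pointed end. Act5C and Act42A are the cytoplasmic actins.

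The sequences that carry the exact AP-1 site within 250 bp of a member summit are shown first, 29 bases each, 5′ to 3′ on the strand of the gene, with the site in capitals. They were read from the Release 6 genome (dm6).
chic, site nearer to the summit, minus strand, chr2L:5980233-5980261: gagtgaacgggTGACTCAcggcttggaat
chic, second site, minus strand, chr2L:5980423-5980451: agagccgccgtTGAGTCAtcgtctgctct
sqh, minus strand, chrX:6224527-6224555: gtttgcgcgagTGACTCAgagagctgcgc
jar, minus strand, chr3R:24260568-24260596: accgaccaaacTGACTCAtttcgcaaaac
jar, second site, minus strand, chr3R:24259855-24259883: cacaacgcccaTGAGTCAgaaggcagaag
Act5C, plus strand, chrX:5899940-5899968: gaaatgcttacTGAGTCAcagcctctgga
The chic sites lie in the 5′ UTR, the sqh and jar sites in introns and the Act5C site upstream of the gene. The nearer chic site and the sqh site lay within 100 bp of the summit in all 4 lists and the first jar site in 2 lists. The second chic site lay 113 to 119 bp from the summit. The second jar site lay 174 bp and the Act5C site 173 bp from a summit of replicate 3.

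Of the 9 genes, chic and sqh had a high kay peak, jar, ena and tsr had lower ones, Act5C and Act42A had only weak peaks of replicate 3, and zip and cpb had none. The authors' optimal list, the set that passed their irreproducible discovery rate step, held 199 peaks and placed a summit at 2 of the 9 genes, against 1.22% of all protein-coding genes. Their list from both libraries pooled held 4350 peaks and reached 5 of the 9, against 15.2%. By its name it holds peaks and background, as input for that step. The list of replicate 1 held 2060 peaks and reached 4, against 9.52%, and the list of replicate 3 held 13835 and reached 7, against 34.7%. Peaks in both replicates' own lists were found at 4 of the 9 (chic, sqh, tsr and jar), against 9.04%. These counts cannot be read as enrichment, because the genes were listed with the peaks in view. Most listed peaks were above the authors' q-value of 0.05: 327 pooled, 185 replicate 1 and 478 replicate 3 peaks were at or below it. When only peaks with the authors' q-value of at most 0.05 were kept, chic and sqh had a peak in the pooled list and in replicate 1, and chic, sqh and jar in replicate 3, against 2.14%, 1.15% and 3.29% of protein-coding genes. Counting only summits within 1 kb of a start left 3 genes in the pooled list (chic, sqh and tsr), against 11%.

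Signal is the authors' number per peak, on a scale that differs between lists, and ranks count from the highest signal of a list, mitochondrial peaks included.

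**Figure D1:**
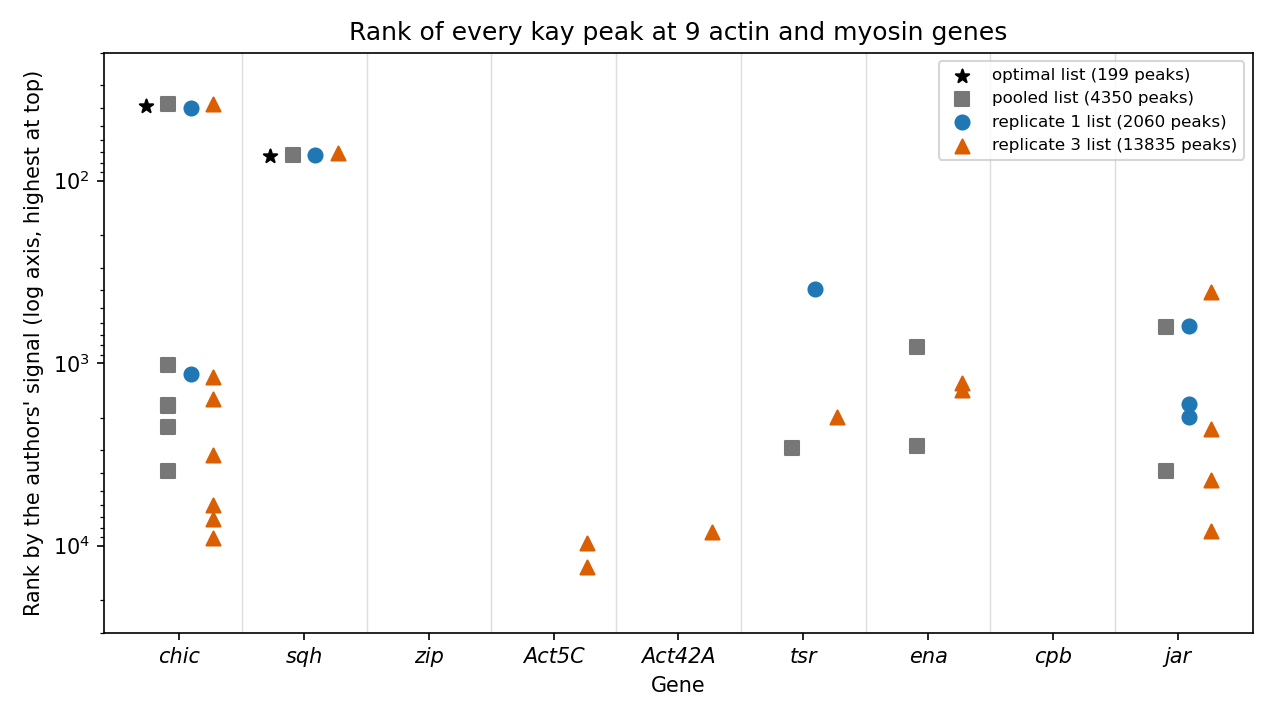
Each point is a kay peak at a gene on the horizontal axis, and the vertical axis is its rank by the authors' signal within its own list, on a log axis with the highest at the top. The chic and sqh peaks sit at ranks 38 to 40 and 71 to 73 in all 4 lists, while the other peaks lie at rank 394 or lower and zip and cpb have no point.

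The profilin gene chic (FBgn0000308, 2L 5972115 to 5981018, minus strand) had its main peak in the 5′ UTR of transcript chic-RC, downstream of the second of its 3 annotated starts. In the pooled list the summit lay at 2L 5980318, 163 bp downstream of that start, with a signal of 369.8 at rank 38. In replicate 1 the signal was 166.8 at rank 40, with the summit 158 bp downstream of the start. In replicate 3 it was 197.2 at rank 38, with the summit 157 bp downstream. Both libraries therefore placed chic near the top, and their summits lay 1 bp apart, where the median distance between summits of overlapping peaks was 58 bp over 1661 nuclear peaks of replicate 1. Mitochondrial peaks filled most of the higher ranks: among nuclear peaks chic ranked 6 in the pooled list, 6 in replicate 1 and 9 in replicate 3.

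Both TGACTCA sites of chic lay beside this summit, on opposite sides of it. The nearer lay 71 bp from the pooled summit, 76 bp from that of replicate 1 and 77 bp from that of replicate 3. The other lay 119, 114 and 113 bp away in the same order, 44 bp downstream of the chic-RC start. The chic gene with its 1 kb windows held 2 such sites in all.

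The rest of chic carried weak peaks, all far below the main one. Its second peak lay in an intron 2366 bp downstream of the nearest start, with a signal of 58.4 at rank 1028 of the pooled list, so the main peak was 6.33 times as high. The same ratio was 6.66 in replicate 1 and 5.21 in replicate 3. The pooled list held 4 further peaks in the gene, at ranks 1697 to 3908, of which 3 were intronic and the lowest lay in the 3′ UTR. Replicate 1 held 2 chic peaks in all and replicate 3 held 7. No exact site lay within 100 bp of any chic summit other than the main one, and 1 pooled intron summit had a CArG box, the site of serum response factor, within that window, as did 1.02% of all nuclear pooled peaks.

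The myosin light chain gene sqh (FBgn0003514, X 6223061 to 6225140, minus strand) had a single peak in each list. In the pooled list its summit lay at X 6224520, on the annotated start of transcript sqh-RB, with a signal of 200.3 at rank 72. In replicate 1 the signal was 96.3 at rank 72 and the summit lay 29 bp downstream of that start. In replicate 3 it was 111.7 at rank 71 and the summit lay 28 bp upstream. The ranks thus agreed within 1 place between the libraries, and the summits lay 57 bp apart. Among nuclear peaks sqh ranked 39 in the pooled list, 36 in replicate 1 and 40 in replicate 3.

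The sqh site lay between the replicates' summits and upstream of the start they flank. Its centre was 21 bp upstream of the sqh-RB start, 50 bp from the summit of replicate 1 and 7 bp from that of replicate 3. A second TGACTCA, in the 5′ UTR of the longer transcripts, lay 368 bp from the pooled summit and had no summit of its own. The chic peak was higher than the sqh peak in every list, 1.85 times in the pooled list, 1.73 times in replicate 1 and 1.77 times in replicate 3. Relative to the highest nuclear peak of each list, chic stood at 53.2%, 52.9% and 50.9% in the same order and sqh at 28.8%, 30.5% and 28.8%.

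Genes at the peaks next in signal to chic and sqh were found in the optimal list. Just above chic (rank 39) stood the peaks nearest the starts of CG14100 with 395.7 and CG11050 with 370.4, and just below it Rac2 with 368.9 and CG10527 with 358.1. Of these 4, all but CG14100 had a TGACTCA within 100 bp, at 21, 26 and 15 bp for CG11050, Rac2 and CG10527. Rac2 encodes a small GTPase that drives actin assembly, and its peak ranked 39 in replicate 1 and 37 in replicate 3, next to chic in both. Around sqh (rank 73) stood Hmg-2 with 201.7, a mitochondrial peak with 201.4, Trl, the gene of GAGA factor, with 197.1 and mRpL41 with 194.1. Of the 3 nuclear ones Hmg-2 had the site, 35 bp from the summit, and the Trl peak overlapped no peak of replicate 1.

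**Figure D2:**
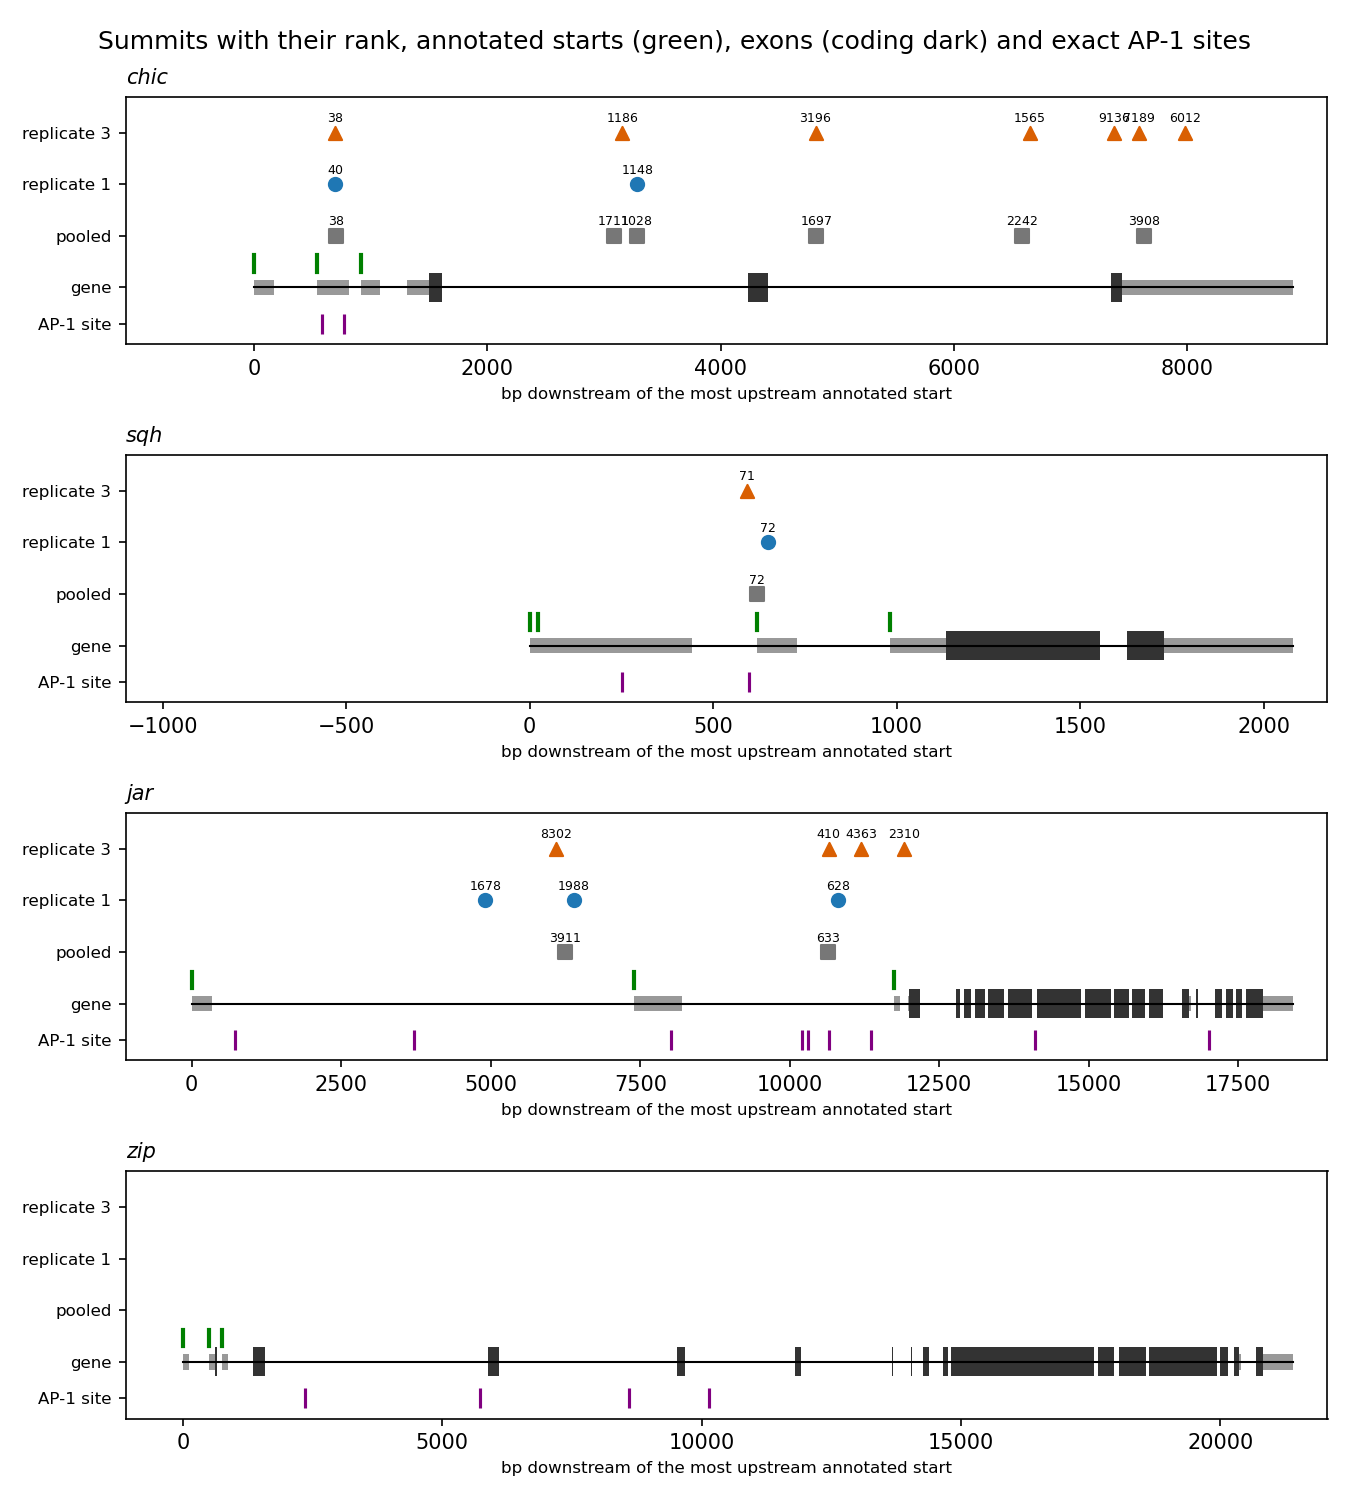
For chic, sqh, jar and zip, summits of the pooled list and of each replicate are plotted by distance in bp downstream of the most upstream annotated start, with their rank above each mark. Green ticks are annotated starts, boxes are exons with coding parts darker, and purple ticks are exact AP-1 sites. The main chic summits sit between the gene's 2 sites, the sqh summits sit around the more downstream of its sites, and zip has 4 sites and no summit.

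The myosin VI gene jar (FBgn0011225, 3R 24252826 to 24271233, minus strand) had its highest peak on an AP-1 site, in an intron upstream of its most downstream start, at a lower rank than chic and sqh. In the pooled list the summit lay at 3R 24260587, 1099 bp upstream of the start of jar-RB and jar-RL and 5 bp from the centre of the site, with a signal of 70.8 at rank 633. In replicate 3 the summit was on the site itself, with 0 bp between them, a signal of 55.3 and rank 410. In replicate 1 the overlapping peak had 32.4 at rank 628, and its summit lay 154 bp from the site. The peak was within the top 14.6% of the pooled list, the top 2.96% of replicate 3 and the top 30.5% of replicate 1. The libraries thus differed in position by 154 bp, a distance reached or undercut by 79.7% of matched pairs. The same window held 7 overlapping matches to GAGAGAG, the letters of GAGA factor sites, all in the CT run of 19 bases shown in capitals here with the AP-1 site, on the minus strand of chr3R:24260487-24260687.
jar intron: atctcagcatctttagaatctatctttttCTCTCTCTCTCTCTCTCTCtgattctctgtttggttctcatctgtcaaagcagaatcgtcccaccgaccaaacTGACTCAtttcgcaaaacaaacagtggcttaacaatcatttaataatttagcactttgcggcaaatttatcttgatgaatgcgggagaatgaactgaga
An exact AP-1 site and GAGAGAG together lay within 100 bp of 0.533% of nuclear pooled summits, or 23 of 4317, and GAGAGAG alone or with it within 100 bp of 6.12%.

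The jar gene held 9 TGACTCA sites, the most of the 9 genes, and summits stood on few of them. Of the 9, 1 lay within 100 bp of a pooled summit, 1 within 100 bp of a replicate 3 summit and 0 within 100 bp of a replicate 1 summit. The pooled list held 2 jar peaks, replicate 1 held 3 and replicate 3 held 4. Peaks of replicate 3 at rank 2310, 160 bp downstream of the jar-RB start, and at rank 4363, 555 bp upstream of it, overlapped no pooled peak. Nor did a peak of replicate 1 at rank 1678, 2481 bp upstream of the jar-RM start. The second jar region of the pooled list, near the gene tRNA:Leu-TAA-4-1 inside the jar intron, had a summit at rank 3911 of the pooled list, 1988 of replicate 1 and 8302 of replicate 3. The tRNA gene's start lay 271 bp downstream of the pooled summit. Of the 39 member peak intervals over the 4 lists, that replicate 3 interval was the only one with repeated sequence, with 95.6% of its 36-base words unique on the nuclear arms.

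Of the remaining filament-end genes, tsr and ena had intronic peaks with no exact site within 100 bp, and cpb had none. The genes tsr, ena, zip and Act42A are on 2R, for which no sequence is shown. The cofilin gene tsr (FBgn0011726, 2R 24044453 to 24046805) had a signal of 38.4 at rank 394 in replicate 1 and of 31.2 at rank 1985 in replicate 3. In the pooled list it had 37.5 at rank 2936. In both replicates tsr stood above the median over nuclear peaks (25.9 and 18.7), but in the pooled list below it (42.3). Its replicate summits lay 234 bp apart, 234 and 468 bp downstream of its only annotated start, and the nearest TGACTCA was 19006 bp away from the replicate 1 summit. The pooled and replicate 1 summits also lay 844 and 840 bp upstream of a start of sei, a potassium channel gene, and so count for both genes. The ena gene (FBgn0000578, 2R 19141632 to 19163705) had no peak in replicate 1. In replicate 3 it had 2, with signals of 36.6 and 35.5 at ranks 1294 and 1412. In the pooled list it had 63.9 and 38.1 at ranks 819 and 2835, the lower of them below the pooled median. The higher pooled summit lay 2658 bp downstream of an ena start and 256 bp upstream of the start of lncRNA:CR43399, a noncoding RNA gene. The ena gene held 5 TGACTCA sites, 0 of them within 100 bp of a summit in any of the 4 lists. The cpb gene (FBgn0011570, 2L 1704902 to 1706962) had no peak in any list and 1 site, and its nearest summit, of replicate 3, lay 1543 bp from the gene's nearest end or start at rank 6905.

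The cytoplasmic actin genes had only low peaks of replicate 3. Act5C (FBgn0000042, X 5900861 to 5905399) had a summit 734 bp upstream of its first start with a signal of 16.1 at rank 9710, and another in an intron with 14.0 at rank 13053. The first lay 138 bp upstream of lncRNA:CR45668 and 173 bp from the site shown above. Act42A (FBgn0000043, 2R 6013910 to 6015689) had a summit in its 3′ UTR with 17.2 at rank 8453. All 3 signals are below the median of 18.7 over all nuclear peaks of that list. Actin genes share much of their coding sequence, but every 36-base word under these 3 peaks was unique on the nuclear arms.

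The heavy chain gene zip, partner of sqh in nonmuscle myosin II, had no summit in any list. It spans 21396 bp (FBgn0287873, 2R 24990570 to 25011965), has 3 annotated starts and holds 4 TGACTCA sites, all intronic and at least 1588 bp from a start. Its nearest summit of replicate 3 lay 4761 bp away at rank 8898, and that of the pooled list 64196 bp away. Of the 1359 protein-coding genes longer than 15 kb, 83.2% had a summit in replicate 3 and 50.3% in the pooled list. Of the 3 members of that length, ena and jar had one in both lists. Of genes shorter than 3 kb, the class of sqh, Act42A, tsr and cpb, 22% had a replicate 3 summit and 0.452% an optimal one. Of these 4 members, 3 had a replicate 3 summit and 1, sqh, an optimal one. From 3 to 15 kb, the class of chic and Act5C, the shares were 45.9% and 2.04%. Of these 2 members, 2 had a replicate 3 summit and 1, chic, an optimal one.

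Across the 9 genes, 25 TGACTCA sites lay in the gene or within 1 kb of a start, and few were under summits. Within 100 bp of a summit were 2 in the optimal list (8%), 3 in the pooled list (12%), 2 in replicate 1 (8%) and 3 in replicate 3 (12%). Over the 11142 sites of the nuclear arms the shares were 0.35%, 2.23%, 1.44% and 4.6% in the same order. Counted by peak, the site lay under 2 of 2 member peaks in the optimal list, 3 of 12 in the pooled list, 2 of 7 in replicate 1 and 3 of 18 in replicate 3. All nuclear peaks of those lists held it in 23%, 5.58%, 7.36% and 3.49%, and windows of the same length at all 23581 annotated starts in 1.66%. These shares cannot be read as enrichment, because the genes were listed with the peaks in view. Nor are the 4 lists separate evidence, since they come from the same libraries. Neither the cyclic AMP response element TGACGTCA nor the DNA replication element TATCGATA lay within 100 bp of a member summit in any of the 4 lists. All nuclear pooled peaks held them in 0.695% and 1.51%. The forkhead letters TGTTTAC lay under 1 chic and 1 jar summit, and CATTCC, the letters bound by TEAD factors, under the Act42A summit, all at peaks of replicate 3 ranked 8302 or lower. All nuclear peaks of that list held these letters in 6.87% and 7.59%. GAGAGAG lay under the upstream Act5C summit of replicate 3, as it did under 4.13% of its nuclear peaks, and otherwise only under the jar peak shown above.

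Another 83 genes of the actin and myosin cytoskeleton were described in the same way, together with the 9 in 8 roles. The 83 were chosen by textbook role, with earlier results of these data known. The pooled list reached every one of these roles but the actins. It held a summit at 0 of 6 actin genes, among them the muscle actins Act57B, Act79B, Act87E and Act88F. It held one at 8 of 12 genes for monomer binding and filament ends, 3 of 7 for myosin II, 4 of 11 unconventional myosins and 7 of 17 for Arp2/3, the complex that branches filaments. For formins and other nucleators it was 4 of 7, for crosslinkers and membrane links 9 of 18 and for the sarcomere 7 of 14. These role counts include members of the 9, which were listed with the peaks in view: chic, tsr and ena are among the 8, sqh among the 3 and jar among the 4. Nor are the counts matched for gene length. Median spans ranged from 2301 bp for the actins to 30215 bp for formins, with 21016.5 bp for crosslinkers. Of all protein-coding genes, 7.34% below 3 kb and 50.3% above 15 kb had a pooled summit. Over the 83 genes outside the 9 the pooled share was 44.6%, against 15.2% of all protein-coding genes. In the lists of replicates 1 and 3 it was 38.6% and 71.1%, against 9.52% and 34.7%. The optimal list, however, held a summit at 0 of the 83, against 1.22%. Length differs between these sets, with a median span of 11138 bp in the 83 and 2166 bp in all. Within length classes, the pooled shares of the 83 were 35.7% below 3 kb, 37.1% from 3 to 15 kb and 55.9% above. Those of all protein-coding genes were 7.34%, 20.1% and 50.3%. None of these shares can be read as enrichment, because the genes were chosen with earlier results known. The length classes were also added after the values were seen.

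**Figure D3:**
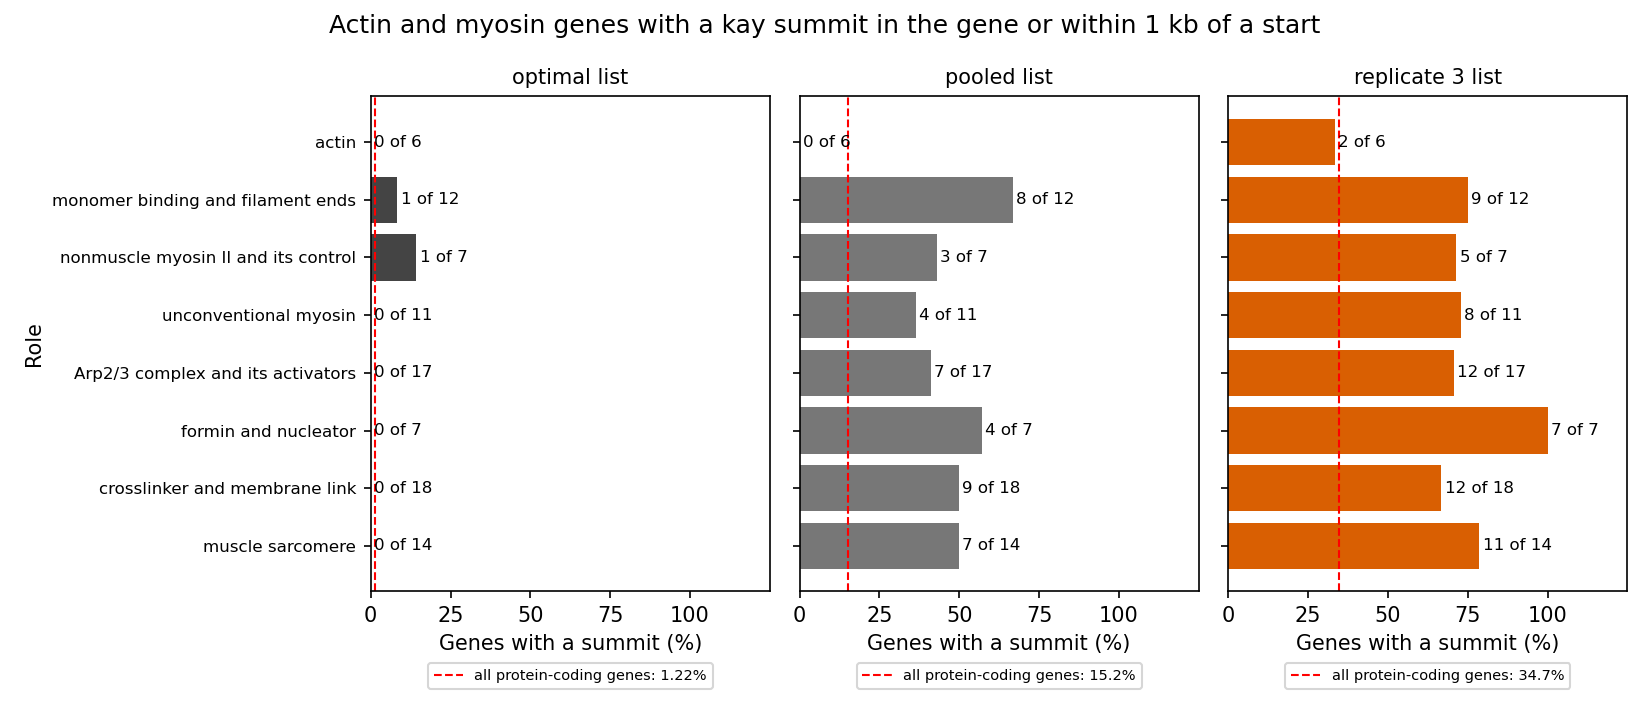
Bars give the percent of genes of each role with a kay summit in the gene or within 1 kb of a start, from 0, with counts beside them, in the optimal, pooled and replicate 3 lists. The dashed line is the share of all protein-coding genes, at 1.22%, 15.2% and 34.7%, and is not matched for gene length, which differs between roles. Of the 8 roles shown, the optimal list reaches 2, through chic and sqh, and the actins are at 0 in the optimal and pooled lists. The bars include the 9 members, which were listed with the peaks in view.

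The highest pooled peaks per role at genes outside the 9 are given here, whatever their height. Of the genes named so, only Mlc-c and rhea ranked among the highest 327 pooled peaks, the number with a q-value of at most 0.05. The Mbs and capu peaks, at 41.6 and 39.8, were below the median of 42.3 over nuclear pooled peaks. Mlc-c, the other light chain of myosin II, had a signal of 104.7 at rank 239 of the pooled list, 226 in replicate 1 and 462 in replicate 3, in an intron 456 bp downstream of a start. The AP-1 site lay 94 bp from its pooled summit. Mbs, the regulatory subunit of the myosin phosphatase, was far lower, at rank 2275. Of the 3 subunit genes of nonmuscle myosin II, sqh thus had a peak in 4 lists, Mlc-c in 3 and zip in 0. Among unconventional myosins Myo31DF, which sets left-right handedness of fly organs, had 80.3 at rank 458, with 2 exact sites in its window, and Myo28B1 had 77.8 at rank 482, both above the 70.8 of jar. The highest Myo31DF peak ranked 507 in replicate 1 and 635 in replicate 3, against 628 and 410 for jar.

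Other roles had peaks of similar height to that of jar. Cortactin, an Arp2/3 activator, had 80.9 at rank 445, Arpc2, a subunit of the complex, 77.9 at rank 480, and Abi, a subunit of the SCAR complex, 73.3 at rank 575. The highest Cortactin peak ranked 214 in replicate 1 and 1258 in replicate 3. The Abi peak lay between the starts of Abi and twf, the gene of the monomer-binding protein twinfilin, and counts for both. The formin and nucleator genes were lower, with spir at rank 989, Fhos at 1324 and capu at 2511. Of the crosslinkers, rhea, the talin gene, had 98.5 at rank 275, cher, the filamin gene, 81.8 at rank 440 with a site 91 bp away, and Tm1, a tropomyosin gene, 61.4 at rank 900. The highest rhea peak ranked 165 in replicate 1 and 453 in replicate 3. In the sarcomere Prm, the paramyosin gene, had 63.2 at rank 838, Mf, the myofilin gene, 50.7 at rank 1440 and Zasp66 50.6 at rank 1448. Of the genes outside the 9 given a pooled rank by role, Tm1 and Mf had no peak in replicate 1. The others had at least 1 peak in each replicate's list, but the highest was not always at the same place. For Fhos it lay 11294 bp downstream of a start in the pooled list and 7533 bp in replicate 1. At their highest pooled peak, 6 of the 37 genes with one outside the 9 had an exact site within 100 bp. Of all nuclear pooled peaks, which unlike these were not chosen as the highest of a gene, 5.58% had one.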

How the data were processed

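Peaks came from 4 lists on dm6 as the authors deposited them: 1 per replicate, 1 on both libraries pooled and 1 named optimal after the irreproducible discovery rate step. Per the deposited listing, each replicate list derives from that library's alignments and 1 control file, with read depth, aligner, peak caller and settings not given in the sources used here. Only ranks and ratios within a list were taken from the deposited signal per peak. The deposited -log10 q-value gave the q-value threshold. The dm3 lists were not used. Genes came from Ensembl release 115 on the same coordinates, and sequences from Release 6, read with Python 3.11.15. Motifs were sought on either strand within 100 bp of a summit, and the search was tested on simulated data. Replicate peaks were matched by an overlap of at least 1 bp. Members, roles and lists were chosen with earlier results of these data known. Genes named were the 9 members, listed genes with an optimal peak, up to 3 per role with the highest pooled peak, and those at the 2 peaks above and below chic and sqh. Genes neighbouring a member peak were named, and the length classes and the search for repeated words were added, after the values were seen. Of 92 listed symbols, 2 were matched through a synonym. A role beyond these 92 is not reported here. Alternatives changed distances, windows, motif, lists and q-value.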

Additional observations from a re-analysis of the deposited data

How the results depend on the processing

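The counts of members with a peak and of member peaks with the AP-1 site were recomputed under other settings, and 31 of 42 such values stayed within 1.5 times the main count. Counting only summits within 1 kb of a start left 3 members in the pooled list (chic, sqh and tsr) in place of 5. Keeping only peaks with a q-value of at most 0.05 left 2 in the pooled list and 2 in replicate 1, both chic and sqh, and 3 in replicate 3, with jar added. Within 50 bp of the summit the site lay under 1 optimal member peak (sqh) and under 0 of replicate 1. Within 250 bp, or anywhere in the peak, it lay under 5 peaks of replicate 3. With up to 1 mismatch it lay under 6 pooled, 4 replicate 1 and 7 replicate 3 peaks, and such a match lay under 37.4% of all nuclear pooled peaks. With a single replicate's list in place of the pooled list, cut to the pooled list's number of highest peaks where longer, the count of 5 members became 5 without replicate 1 and 4 without replicate 3. No paired analysis was possible because there is 1 group. Read depth is unknown, so the absence of a summit at zip and cpb says only that no peak was listed.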

Other observations

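Some summits lay just outside the members' windows. A replicate 3 summit lay 133 bp past the end of Act42A, at rank 6282. Past the end of ena, beside CG10737, summits lay 72 bp away in the pooled list at rank 1686, 79 bp away in replicate 1 at rank 754 and 50 bp away in replicate 3 at rank 6228. Counting these would give ena a peak in replicate 1. Next to tsr, a pooled summit nearest the start of gammaSnap1 lay 2142 bp away with a signal of 75.4 at rank 534, higher than the 37.5 of tsr itself.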
